A study of Mus musculus with 20 samples.

Results

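Nos1, which encodes neuronal nitric oxide synthase (nNOS), and 7 genes of the sarcolemmal complex that holds the enzyme in muscle fibres, Dmd, Utrn, Dag1, Sgca, Sgcb, Sgcd and Dtna, were followed in mouse plantaris muscle. The 8 genes were listed by symbol out of 54532 Ensembl genes, of which 30194 had at least 1 count, and all 8 passed the filter on low counts in every comparison. Nos1 was chosen by its fall after overload in these libraries, so its levels here are a description and carry no test. The 7 partners were added by name, to ask whether that fall was shared by transcripts of the complex at which nNOS docks.

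RNA-seq was done on 20 plantaris libraries of male C57BL/6J mice aged 5 months, collected 10 days after surgery, with 5 libraries in each of 4 groups. Sham control muscles had a sham operation and a control lentivirus, and sham mimic muscles had the same operation and a lentivirus for a miR-1 mimic. MOV control and MOV mimic muscles had mechanical overload (MOV), in which part of the gastrocnemius and soleus complex was removed from both hindlimbs so that the plantaris carried the load, with the control or the mimic virus. Both viruses carried TurboGFP behind a CMV promoter, which is not restricted to muscle fibres, and were injected into opposite legs of the same mouse, the control on the left and the mimic on the right, and the study's methods give 10 mice, 5 for each operation. A mimic and a control library of 1 operation therefore share mice, while sham and MOV libraries come from different mice, and the labels do not say which libraries share an animal. Values come from whole muscle, where fewer cells of a type and less RNA per cell cannot be told apart.

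In skeletal muscle, dystrophin joins the actin cytoskeleton to a membrane complex of dystroglycan and sarcoglycans, and dystroglycan binds laminin outside the fibre. The syntrophins and dystrobrevins sit on the cytoplasmic side, and nNOS docks there through the syntrophins and dystrophin. From that site nNOS makes nitric oxide, which acts on blood flow and contraction through soluble guanylate cyclase, and loss of dystrophin is known to release nNOS from the membrane.

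Library totals ran from 12036360 to 23056525 counts. The labelled tissue was checked with 12 myofibre markers, of which 0 were without counts in any group and whose summed level ran from 42901 to 109276 CPM (counts scaled to library size). MOV mimic 5 stood apart from its label: on a score set as the mean log2 CPM of 378 genes called higher minus that of 517 genes called lower in MOV control against sham control by DESeq2, among genes with a mean of at least 1 CPM and without the 8 genes, it had -1.77, inside the range of the sham libraries from -2.67 to -0.61, where MOV mimic 2 at -0.64 also fell just inside, while the other 3 MOV mimic libraries lay between -0.22 and 0.62. Its mitochondrial share of counts was 13.6%, against 5.42% to 8.61% in the other MOV libraries and 7.88% to 13.5% in sham. MOV mimic 4 had the lowest mean correlation with its own group, 0.87. The differences of the 8 genes between MOV mimic and sham mimic are given with and without these libraries, those against MOV control and for the interaction likewise, as ranges over the partners, and the values of other genes only with them.

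The sequences around the annotated starts of Nos1 and Sgca, the members with the lowest fitted differences after overload, are shown as annotated, since gene counts do not tell where transcripts begin. They are the RefSeq windows from 250 bases before to 50 bases after 1 annotated start, in build GRCm38.p6, written 5′ to 3′ on the strand of the gene. Nos1 lies at chr5:117866589-117866888 on the plus strand and Sgca at chr11:94976278-94976577 on the minus strand. Capitals mark E-boxes, the CANNTG motif that myogenic basic helix-loop-helix factors bind, which reads the same on both strands.
Nos1: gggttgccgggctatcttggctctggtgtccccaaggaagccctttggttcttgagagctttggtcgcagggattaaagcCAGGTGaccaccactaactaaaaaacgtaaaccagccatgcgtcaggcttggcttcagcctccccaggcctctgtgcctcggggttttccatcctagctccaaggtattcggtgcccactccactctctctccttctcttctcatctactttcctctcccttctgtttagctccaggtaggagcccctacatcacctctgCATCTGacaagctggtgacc
Sgca: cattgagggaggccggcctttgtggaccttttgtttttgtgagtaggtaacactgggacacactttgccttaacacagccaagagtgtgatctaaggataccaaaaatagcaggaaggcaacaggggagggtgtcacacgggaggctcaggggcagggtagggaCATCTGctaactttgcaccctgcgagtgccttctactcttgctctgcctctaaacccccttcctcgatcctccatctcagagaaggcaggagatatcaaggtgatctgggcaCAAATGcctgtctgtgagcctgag
Each window held 2 E-boxes, and 72.3% of 32851 promoter windows of this length held at least 1. Neither held the TATA box TATAAA, found on either strand in 13.6% of the windows, nor the GC box GGGCGG, found in 35.7%. A match is a run of letters only, and Nos1 is known to have further first exons that this window does not cover.

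Nos1 was the member with the widest range between groups, as a ratio of group means. In sham control it measured 93.6, 46.5, 39.2, 48.6 and 52.0 TMM CPM, where TMM is the library scaling of edgeR, and in sham mimic 105, 36.9, 57.2, 58.8 and 51.3 CPM. In MOV control it measured 17.1, 19.1, 19.1, 14.9 and 15.3 CPM, so the highest MOV control library was below the lowest sham library of either virus. In MOV mimic it measured 35.0, 34.4, 26.8, 18.7 and 67.2 CPM, with only MOV mimic 5 inside the sham ranges. The means were 56.0 ± 21.6, 61.9 ± 25.8, 17.1 ± 2.01 and 36.4 ± 18.4 CPM (SD, n = 5 each) in the order sham control and mimic, then MOV control and mimic. Raw counts of Nos1 ran from 214 to 1384 per library. In MOV control the counting error alone was 4.77% to 6.84% of a library's count, against an SD of 11.8% of the mean, and in the other groups it was at most 6.27% against an SD of 38.5% to 50.6%.

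The level of Nos1 in MOV control was 30.8% of that in sham control, a log2 fold change of -1.70 with a 95% interval from -2.17 to -1.23. With the mimic virus the same contrast gave -0.74, from -1.47 to -0.02, which was -1.10 without MOV mimic 5, -0.57 without MOV mimic 4 and -0.94 without both. Sham control 1 and sham mimic 1 had the highest Nos1 of their groups. Without sham control 1 the difference with control virus was -1.44, and without sham mimic 1 that with mimic virus was -0.48.

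**Figure D1:**
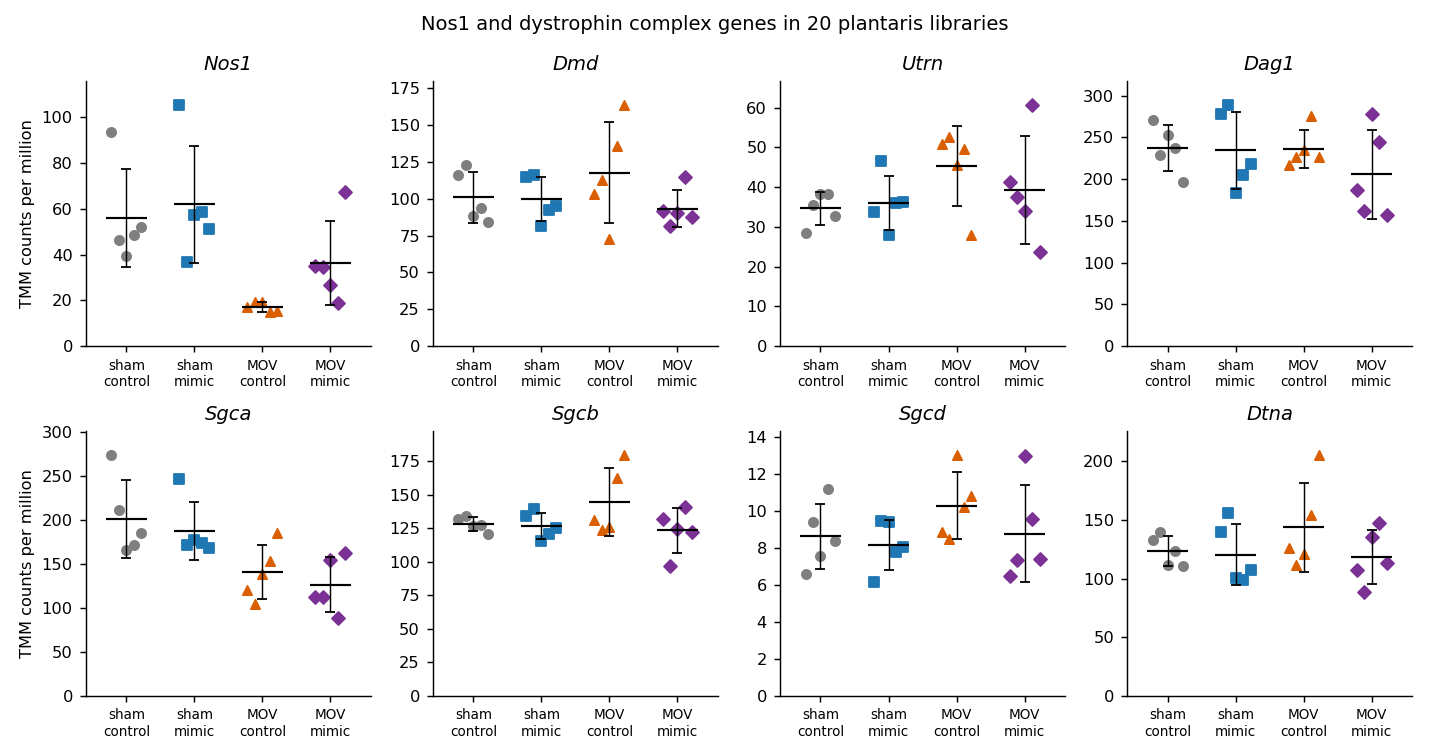
TMM CPM (linear axes from 0) of Nos1 and 7 partners in 20 libraries, 5 in each group, with black lines for the mean and bars for 1 SD. Nos1 lies between 14.9 and 19.1 in MOV control against 39.2 to 93.6 in sham control, while each partner overlaps between these groups.

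Dystrophin and its paralog had fitted differences above 0 after overload with control virus. Dmd, the cytoskeletal anchor of the complex, measured 116, 123, 88.4, 93.6 and 84.5 CPM in sham control and 103, 113, 72.3, 136 and 164 CPM in MOV control. The MOV control libraries lay on both sides of all sham control libraries, and the fitted difference was 0.22 ± 0.20 (log2, SE) with an interval from -0.20 to 0.65 (edgeR adjusted p = 0.583). Without MOV control 5, the highest library, the difference was 0.08. Sham mimic had 114, 116, 81.3, 92.2 and 94.8 CPM of Dmd and MOV mimic 91.6, 81.2, 90.4, 115 and 87.9 CPM, which overlapped throughout. The difference was -0.09, and it was -0.17 without MOV mimic 4, -0.08 without MOV mimic 5 and -0.18 without both.

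Utrn, which encodes utrophin, a paralog of dystrophin found at the neuromuscular junction and in regenerating fibres, was the member with the highest fitted difference after overload. It measured 28.5, 35.6, 38.3, 38.2 and 32.6 CPM in sham control and 50.9, 52.6, 45.6, 49.6 and 27.9 CPM in MOV control. All but 1 of the MOV control libraries were above every sham control library, and MOV control 5 was below them all. The difference was 0.40 ± 0.17 (edgeR adjusted p = 0.239, exact permutation p = 0.0714). Without MOV control 5 it was 0.53 with an adjusted p of 0.0493 by edgeR, in a fit that called 318 genes. In MOV mimic, Utrn ran from 23.6 to 60.6 CPM against 27.9 to 46.7 CPM in sham mimic, a difference of 0.13 ± 0.22 (edgeR adjusted p = 0.827). MOV mimic 4 was the highest and MOV mimic 5 the lowest of these libraries, and the difference was -0.07 without the first, 0.26 without the second and 0.06 without both.

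Dag1, which encodes the dystroglycan precursor, measured 270, 229, 253, 237 and 196 CPM in sham control and 217, 227, 235, 276 and 227 CPM in MOV control. The groups covered the same range, and the difference was 0.00 with an interval from -0.27 to 0.27. In the mimic legs Dag1 ran from 157 to 278 CPM after MOV and from 183 to 289 CPM after sham, a difference of -0.18 ± 0.19, which was -0.25 without MOV mimic 4, -0.11 without MOV mimic 5 and -0.16 without both.

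Of the sarcoglycans, the transmembrane subcomplex that steadies dystroglycan, Sgca lay lower after overload. It measured 274, 211, 165, 171 and 185 CPM in sham control and 121, 104, 138, 154 and 184 CPM in MOV control. The 4 lowest MOV control libraries were below every sham control library, and MOV control 5 fell inside the sham range. The difference was -0.51 ± 0.18, with an interval from -0.91 to -0.12 (edgeR adjusted p = 0.16, exact permutation p = 0.0317), and it was -0.38 without sham control 1 and -0.63 without MOV control 5.

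With the mimic virus, Sgca measured 246, 171, 177, 173 and 168 CPM in sham and 113, 113, 154, 88.4 and 163 CPM after MOV, and here the groups did not overlap. The difference was -0.56 ± 0.18 (edgeR adjusted p = 0.29), and the exact two-sided permutation test gave the smallest p it can reach with 5 libraries a group, 0.00794. Without MOV mimic 5 the difference was -0.68, with an adjusted p of 0.08 by edgeR, and it was -0.45 without MOV mimic 4 and -0.56 without both. In both viruses Sgca missed the threshold over all genes. The background was 2.45% of 14974 genes without overlap in the lower direction for control virus and 1.74% of 14918 genes for mimic virus.

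Sgcb and Sgcd, the beta and delta subunits, had fitted differences above 0 with control virus. Sgcb measured 132, 134, 126, 128 and 121 CPM in sham control and 131, 124, 126, 162 and 180 CPM in MOV control, a difference of 0.18 ± 0.13 (edgeR adjusted p = 0.48). MOV control 4 and 5 were above all sham libraries and the other 3 lay within their range, and without MOV control 5 the difference was 0.09. Sgcd was the lowest of the 8 genes, with 6.61 to 11.2 CPM in sham control and 8.48 to 13.0 CPM in MOV control, from 85 to 245 counts, and its difference was 0.26 ± 0.19 (edgeR adjusted p = 0.496), which was 0.16 without MOV control 3.

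Dtna, which encodes alpha-dystrobrevin, the cytoplasmic partner of dystrophin and the syntrophins, measured 133, 140, 111, 123 and 111 CPM in sham control and 126, 112, 121, 154 and 206 CPM in MOV control. Again MOV control 4 and 5 were the highest, and the difference was 0.22 ± 0.17 (edgeR adjusted p = 0.502), which was 0.06 without MOV control 5. In the mimic legs Sgcb, Sgcd and Dtna differed by -0.03, 0.10 and -0.02 on the log2 scale between MOV and sham. In the same order these differences were -0.08, 0.07 and -0.10 without MOV mimic 4, -0.04, 0.14 and -0.01 without MOV mimic 5, and -0.11, 0.12 and -0.13 without both. Sgcd was -0.08 without MOV mimic 3.

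As a group, 5 of the 7 partners had a difference of 0.18 or more between MOV control and sham control, Sgca was negative, and Dag1 at 0.00 took either sign by tool. Their median was 0.22 against 0.04 for all genes tested, and their intervals ended no lower than -0.91. Both the count and the median rest on MOV control 5, the highest library for Dmd, Sgcb and Dtna, and without it these 3 lay between 0.06 and 0.09 and the median of the partners was 0.08. Of 14974 genes tested in this comparison, 0.00668% were called at an adjusted p under 0.05 by edgeR, a single gene that was Nos1, and nothing is read from that call because the contrast chose the gene. By DESeq2, which called 6.1% of the genes, 0 of the 7 partners were called either. At an unadjusted p under 0.05 there were 2 of 7 partners, Utrn higher and Sgca lower, against 18.2% of all genes. Scaling to a list of myofibre genes moved the median of all genes to 0.19, with Nos1 at -1.48 and Sgca at -0.36, and turned the sign of no partner, while DESeq2, its size factors, the fit without a filter and that of all 20 libraries put Dag1 between -0.03 and -0.01.

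With the mimic virus, 2 of the 7 partners had a positive difference between MOV and sham, and their median was -0.03 against 0.02 for all genes. None of the partners was called by edgeR, which called 0% of 14918 genes, or by DESeq2, which called 1.48%, and 1 of 7, Sgca, had an unadjusted p under 0.05 against 13.4% of all genes. Scaling to the same list raised all genes alike, with their median at 0.32, and Dmd, Dag1, Sgcb and Dtna at 0.24, 0.13, 0.27 and 0.30 and Sgca at -0.26 lay below that median. The partners' median was -0.10 without MOV mimic 4, -0.04 without MOV mimic 5 and -0.13 without both, with 1, 2 and 2 of 7 positive.

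**Figure D2:**
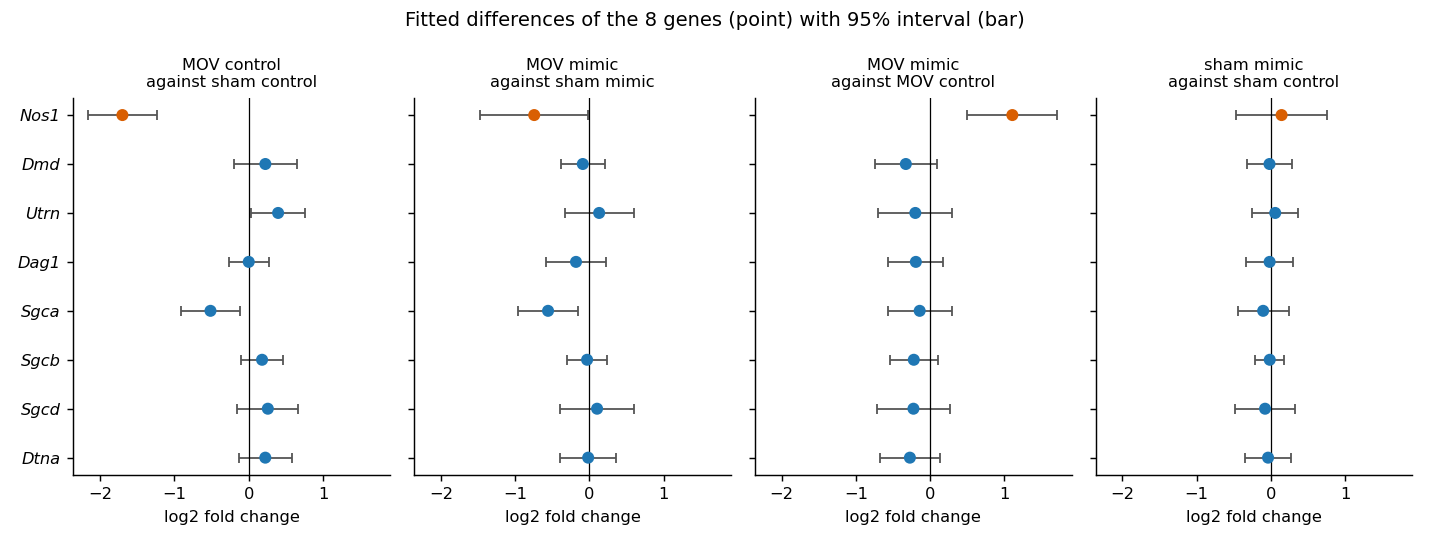
Fitted log2 fold changes (points, x axis) with 95% intervals (bars) of the 8 genes in 4 comparisons, Nos1 in orange and partners in blue. Nos1 stands at -1.70 in MOV control against sham control, while the partners lie between -0.51 and 0.40.

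Nos1 was also set against partners within each library. The ratio of Nos1 to Dmd in CPM ran from 0.379 to 0.806 in sham control and from 0.0935 to 0.264 in MOV control, and in MOV mimic it ran from 0.163 to 0.765. Against Sgca, the partner that also lay lower, the ratio of Nos1 was 0.22 to 0.342 in sham control and 0.0829 to 0.183 in MOV control. These ratios contain the fall that chose Nos1 and are a description.

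Per kilobase of annotated exon, the order of mean levels in sham control was Sgca at 116 CPM per kilobase, Dag1 at 52.0, Sgcb at 34.2, Dtna at 13.1, Nos1 at 5.16, Dmd at 4.24, Utrn at 2.62 and Sgcd at 1.04. Lengths were taken over all annotated exons of a gene, so a gene with exons rarely used in muscle has its level understated. Of the neighbours in this order, Nos1 at 5.16 ± 1.99 and Dmd at 4.24 ± 0.72 (SD, n = 5) did not differ beyond their spread, and the others did. In MOV control Nos1 fell to 1.58 CPM per kilobase, below Utrn at 3.43 and Dmd at 4.94, while the other 7 genes kept their order.

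The mimic virus was compared with the control virus within each operation. After MOV, Nos1 was 2.15-fold higher in mimic than in control legs, a log2 difference of 1.11 with an interval from 0.50 to 1.71. All but 1 of the MOV mimic libraries were above the highest MOV control library, and MOV mimic 4 at 18.7 CPM was within the control range. Leaving out MOV mimic 5 gave 0.75, leaving out MOV mimic 4 gave 1.27, and leaving out both gave 0.91. This comparison shares the MOV control libraries with the one that chose Nos1, so it carries no test.

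The partners lay the other way, and after MOV all 7 had lower fitted levels with the mimic than with the control virus, by -0.33 to -0.14 (log2), and a median of -0.22 against -0.01 for all genes. None was called by edgeR or by DESeq2, which called 0% and 0.0197% of 15220 genes, and 0 of 7 had an unadjusted p under 0.05 against 4.21% of all genes. Dmd had the lowest value, -0.33 ± 0.19 (edgeR adjusted p = 0.999), which was -0.18 without MOV control 5. Over all 7 the intervals ran from -0.75 to 0.30. Without MOV mimic 4 the 7 values ran from -0.41 to -0.04, without MOV mimic 5 from -0.32 to -0.07 and without both from -0.42 to -0.15, all below 0. Without MOV control 5 they ran from -0.34 to -0.03, and their median was -0.18. With all libraries, 8 of 10 further genes of the complex were also negative (median -0.18), as were 13 of 15 glycosylation genes. So were 11 of 14 integrin adhesion genes, 11 of 15 laminin and basement membrane genes and 9 of 12 myofibre markers. Costamere linkers had 6 of 13 negative and nitric oxide signalling genes 8 of 16. Dmd, Sgcb and Dtna varied together between libraries, so 7 equal signs are not 7 separate observations.

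After sham surgery the partners differed by -0.11 to 0.06 between viruses, with intervals between -0.48 and 0.37, and Nos1 by 0.14 with an interval from -0.46 to 0.75, which was 0.40 without sham control 1 and -0.12 without sham mimic 1. None of the 14746 genes, 0%, was called by edgeR, none by DESeq2, and 0 of 7 partners had an unadjusted p under 0.05, as 1.72% of all genes did. The interaction of surgery and virus, the difference between the overload effects of the viruses, was 0.95 for Nos1 with an interval from 0.07 to 1.82, and 0.60 without MOV mimic 5, 1.13 without MOV mimic 4 and 0.77 without both. The interaction contains the contrast that chose Nos1, so for Nos1 it carries no test. For the partners it was -0.32 to -0.05, with 0 of 7 at an unadjusted p under 0.05 against 2.64% of 16166 genes, and edgeR called 0% of the genes. These 7 values ran from -0.46 to 0.07 without MOV mimic 4, where Sgca was the positive one, from -0.30 to -0.10 without MOV mimic 5 and from -0.40 to -0.04 without both. Without MOV control 5 they ran from -0.39 to 0.09, again with Sgca positive. In 28 exact permutation tests of partner CPM over the 4 group comparisons, 2 had a p under 0.05, both for Sgca after overload. This test was not run over all genes. By edgeR, 18.2% of all genes with control virus and 13.4% with mimic virus had an unadjusted p under 0.05 after overload.

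The partners fell into sets by how they varied between libraries. After group means were removed, log2 CPM of Sgcb and Dtna correlated at r = 0.89 over 20 libraries, Dmd and Dtna at 0.80 and Dmd and Sgcb at 0.80, while Dag1 and Dtna correlated at 0.65. Nos1 did not follow them, with r of -0.13 with Dmd, -0.23 with Dtna, -0.23 with Sgcb and -0.31 with Dag1. It varied with Sgca at r = 0.60 and against Utrn at -0.61 and Sgcd at -0.56, and Sgca and Utrn themselves correlated at -0.76. Sham control 1, sham mimic 1 and MOV mimic 5 were the highest of their groups for both Nos1 and Sgca, and MOV mimic 4 the lowest. Within MOV control the 2 genes went opposite ways in libraries 4 and 5, which had the lowest Nos1 and the highest Sgca. Whether r holds without these libraries was not tested. With group means kept, Nos1 and Sgca correlated at 0.68, which put Sgca at rank 999 of the 13947 other genes with a mean of at least 1 CPM. The points share library depth and scaling, and in some cases mouse, so these values are descriptions.

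**Figure D3:**
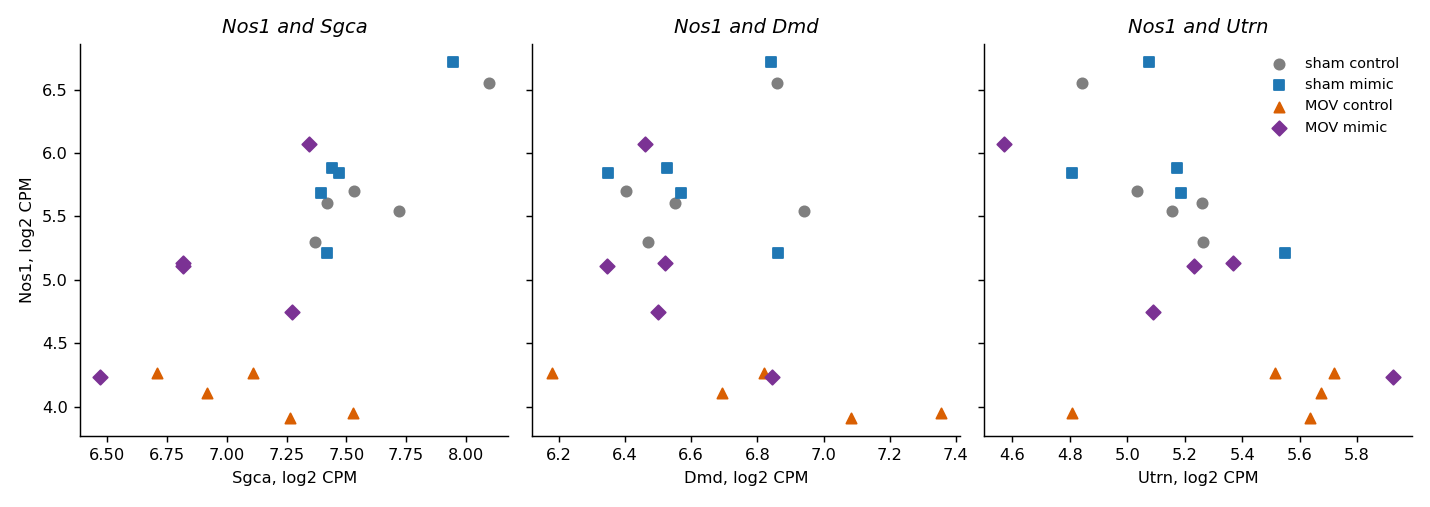
Log2 CPM of Nos1 (y axis) against Sgca, Dmd and Utrn (x axes) in 20 libraries, with symbols for the 4 groups. Over the 20 libraries high Nos1 goes with high Sgca (r = 0.68) and low Utrn (r = -0.63), and spreads over all levels of Dmd (r = -0.27). Within MOV control, libraries 4 and 5 had the lowest Nos1 and the highest Sgca.

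The 5 genes whose log2 CPM was most like that of Nos1 over 20 libraries were Slc49a4 (r = 0.95), Smtnl2 (0.94), Fdft1 (0.94), Cd24a (0.93) and Smox (0.93), and with group means removed r was 0.85 to 0.93. Fdft1 encodes squalene synthase of the cholesterol pathway, Smox encodes spermine oxidase and Cd24a a small surface glycoprotein. Their mean levels in sham control and MOV control were 201 and 51.4 CPM for Smox, 369 and 117 CPM for Cd24a, 466 and 226 CPM for Smtnl2, 65.1 and 33.5 CPM for Fdft1 and 94.2 and 62.2 CPM for Slc49a4. In MOV mimic all 5 had means between these, from 46.7 CPM for Fdft1 to 340 CPM for Smtnl2, an order of groups that choosing them by correlation with Nos1 fixes.

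The rest of the complex was read from a list of 14 further genes, of which 10 passed the filter in control virus. None was called by edgeR, 2 had an unadjusted p under 0.05, both higher, against 18.2% of all genes, and the median difference was 0.04, close to that of all genes. With mimic virus 11 passed the filter, none was called, 2 had an unadjusted p under 0.05, both lower, against 13.4% of all genes, 7 of 11 were negative, and the median was -0.15 against 0.02 for all genes. The 2 lower genes were Sspn and Lama2. Cav3, the caveolin of muscle fibres and a binding partner of nNOS, had 67.5 ± 8.09 CPM in sham control and 86.2 ± 13.7 CPM in MOV control (SD, n = 5), a difference of 0.36 ± 0.13 (edgeR adjusted p = 0.179).

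Sspn, the tetraspan sarcospan, differed by 0.04 between MOV control and sham control and by -0.32 ± 0.13 with mimic virus (edgeR adjusted p = 0.326). Sgce, the epsilon sarcoglycan, differed by -0.46 ± 0.27 with control virus. Sntb1, a syntrophin, differed by 0.17 and Dtnb, beta-dystrobrevin, by 0.43 ± 0.29. Lama2, the laminin chain that dystroglycan binds, differed by -0.17 with control virus and by -0.41 ± 0.15 with mimic virus (edgeR adjusted p = 0.313).

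Krt8, a keratin that links the contractile apparatus to the complex and that was picked out after its values were seen, stood apart in the list. It measured 0.0778, 2.87, 3.51, 1.14 and 2.16 CPM in sham control and 17.2, 5.70, 11.9, 146 and 37.2 CPM in MOV control, so the groups did not overlap, as for 2.44% of all genes in the higher direction. The difference was 4.45 ± 0.90 (edgeR adjusted p = 0.0554). In MOV mimic it was 3.08, 3.09, 6.74, 50.5 and 0.0634 CPM, where the last is 1 count in MOV mimic 5, and sham mimic reached 14.2 CPM in library 2. Epithelial cells also make keratins, and whether these counts came from fibres was not tested.

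**Figure D4:**
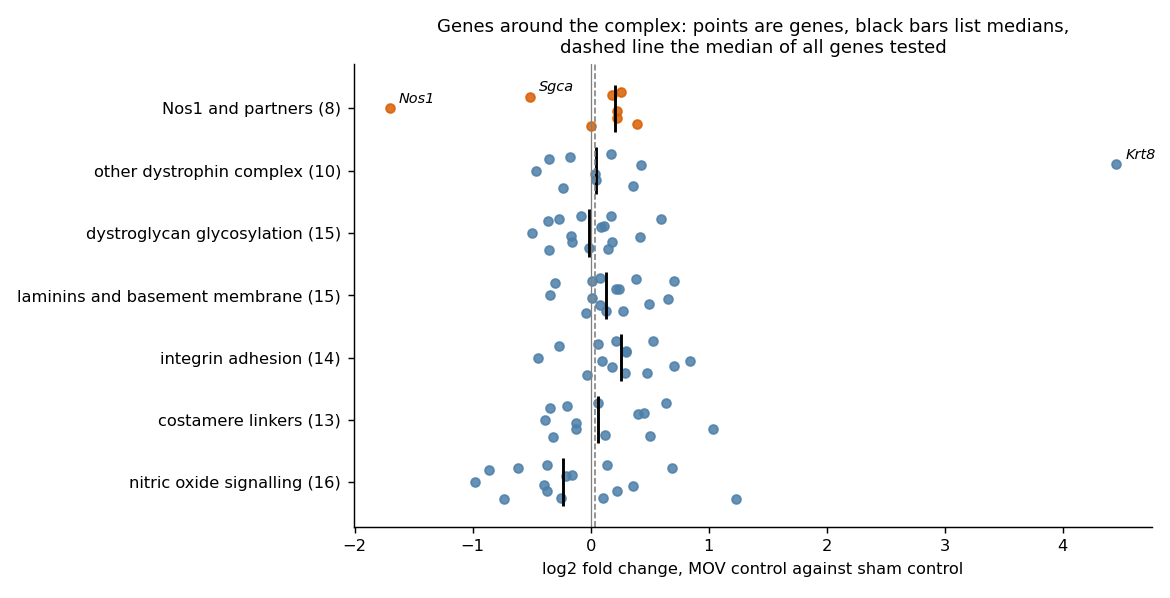
Log2 fold change in MOV control against sham control (x axis) for each gene of 7 lists, with black bars for list medians and a dashed line for the median of all genes, 0.04. Nos1 at -1.70 and Krt8 at 4.45 lie outside the spread of the other genes, and the list medians lie between -0.23 and 0.26.

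The lists around the complex were summarised in the same comparison, and edgeR called 0 genes in each of them. Each count at an unadjusted p under 0.05 stands against 18.2% of all genes. Dystroglycan glycosylation, the enzymes that build the laminin-binding sugar, had 15 genes tested with a median of -0.01 and 2 at an unadjusted p under 0.05, 1 in each direction. Pomt2, an O-mannosyltransferase, had the smallest p, from 9.49 to 14.3 CPM in sham control and from 15.2 to 19.9 CPM in MOV control, a difference of 0.59 ± 0.15 (edgeR adjusted p = 0.0713). Laminins and basement membrane had a median of 0.13 over 15 genes and 1 at an unadjusted p under 0.05, Hspg2, which encodes perlecan, at 0.66 ± 0.29 (edgeR adjusted p = 0.259).

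Integrin adhesion, the other laminin receptor system of the fibre, had a median of 0.26 over 14 genes, with 6 at an unadjusted p under 0.05, 5 of them higher. Itga7, the laminin-binding integrin chain of muscle, had 117 ± 22.6 CPM in sham control and 190 ± 39.8 CPM in MOV control, a difference of 0.71 ± 0.18 (edgeR adjusted p = 0.0724), and 0.52 ± 0.22 with mimic virus. The list as a whole had a median of 0.01 with mimic virus, with 7 genes positive and 7 negative. There 2 were higher and 2 lower at an unadjusted p under 0.05, against 13.4% of all genes. Costamere linkers had a median of 0.06 over 13 genes and 3 at an unadjusted p under 0.05, 2 of them higher. Dysf, the membrane repair protein dysferlin, had a mean of 67.5 CPM in sham control and 104 CPM in MOV control, a difference of 0.64 ± 0.15 that missed the threshold (edgeR adjusted p = 0.0665).

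Nitric oxide signalling had a median of -0.23 over 16 genes, with 4 at an unadjusted p under 0.05, 3 of them lower. Pfkm, the muscle phosphofructokinase that is known to bind nNOS, had 3591 ± 913 CPM in sham control and 2145 ± 217 CPM in MOV control, a difference of -0.74 ± 0.19 (edgeR adjusted p = 0.077). The soluble guanylate cyclase subunits, which receive nitric oxide and were picked out after their values were seen, differed by -0.98 ± 0.28 for Gucy1b1 (edgeR adjusted p = 0.103) and by -0.62 ± 0.28 for Gucy1a1 (edgeR adjusted p = 0.259). The gene of this list in the other direction at that threshold was Ddah1, which encodes an enzyme that breaks down methylarginine inhibitors of nitric oxide synthases, with a difference of 1.23 ± 0.46 (edgeR adjusted p = 0.176).

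Marker lists of other cells were read in the same fits, and edgeR called 0 markers in each list. In MOV control against sham control 3 of 8 endothelial markers were lower at an unadjusted p under 0.05, where 18.2% of all genes passed, with a median of -0.35 and summed levels of 331 to 404 CPM in sham control and 187 to 399 CPM in MOV control. Smooth muscle and pericyte markers had 2 of 8 lower at that threshold, but 5 of 8 had positive differences, with a median of 0.27 and a range from -1.17 to 1.43, and they summed to 472 to 530 CPM and 239 to 544 CPM. All 8 markers of satellite cells and myoblasts had positive differences, 2 of them at that threshold, with a median of 1.18 and sums of 60.9 to 688 CPM and 285 to 1366 CPM.

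Fibroblast markers had 1 of 8 lower and a median of -0.16, and summed to 1259 to 11276 CPM and 3409 to 12815 CPM. Schwann and nerve markers had 0 of 7 at that threshold and a median of 0.10, summed to 54.0 to 89.2 CPM and 37.3 to 138 CPM, and 1 of the 8 had no count in any MOV control library. Leukocyte markers had 0 of 10 and a median of -0.29, and summed to 176 to 775 CPM and 163 to 632 CPM. Myofibre markers had 5 of 12 at that threshold, 3 lower and 2 higher, with a median of -0.19 and 8 of 12 negative.

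In the mimic legs leukocyte markers had 4 of 10 higher after MOV at an unadjusted p under 0.05 against sham mimic, where 13.4% of all genes passed, and a median of 0.45. Against MOV control 3 of 10, Ptprc, Itgam and Cd8a, were higher at that threshold, where 4.21% of all genes passed, 9 of 10 were positive and the median was 0.50. Their sums ran from 179 to 702 CPM in sham mimic and from 359 to 660 CPM in MOV mimic, inside the range of the other groups. Endothelial markers had 5 of 8 lower at that threshold in MOV mimic against sham mimic, with a median of -0.35, and smooth muscle and pericyte markers 2 of 8 lower, with a median of -0.13. Myofibre markers had 4 of 12 lower in that comparison, 10 of 12 negative and a median of -0.40, beside the -0.56 of Sgca and the -0.74 of Nos1, and summed to 67753 to 109276 CPM in sham mimic and 42901 to 86074 CPM in MOV mimic. The satellite cell, Schwann and fibroblast lists had medians of 0.68, -0.17 and -0.02 there, with 1 of 8 higher, 1 of 7 lower and 0 of 8 at that threshold. The part of these cells and of myofibre RNA in the values of Nos1 and its partners was not tested. Annotated lncRNA genes Gm30360 and Gm26995 overlap Nos1, and Hils1 overlaps Sgca. Dmd, Utrn and Sgcd overlap 7, 2 and 2 annotated genes or pseudogenes. The strand setting of the counting is not given in the sources used here, so reads of overlapping genes cannot be told apart.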

How the data were processed

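Plantaris RNA-seq of 20 libraries was analysed, 5 in each of 4 groups taken from the labels. Counts of reads in Ensembl genes, not normalized, were deposited by the authors, made with FastQC 0.11.9, Cutadapt 4.4, Trim Galore 0.6.10, HISAT2 2.0.5 against GRCm38 and featureCounts 1.5.0-p3, per the study's methods and processing notes. The annotation release, strand setting and treatment of multi-mapping reads are not given in the sources used here. Whole-number counts were read from both tables, 54532 genes in the same order, and 32640 had a symbol. No 2 libraries of a group were copies (chi-square per gene 12.7 to 154 over 40 pairs).

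Groups were compared with the quasi-likelihood test of edgeR 4.0.16 (TMM, filterByExpr, two-sided, 10 libraries, no covariates; all 20 for the interaction), with Benjamini-Hochberg adjustment over all genes tested and a threshold of 0.05. Intervals cover 95%. Partner CPM were also compared by exact permutation tests, two-sided. Alternatives were DESeq2 1.42.0, its size factors in edgeR, scaling to the myofibre list, no filter, the replicate number as a block, all 20 libraries in 1 fit and leaving out each library. Leaving out MOV mimic 4 and 5, or both sham libraries numbered 1, was chosen after seeing the data. The fits were tested on simulated data. Mimic and control legs of 1 operation share mice, which these fits do not use.

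The 8 genes and all lists were chosen with earlier results of these data known. Named genes were the 8 members, 8 further genes of the complex (some are not reported here), in each other list the called genes or, with none called, the gene with the smallest p, and the 5 genes most like Nos1 by Pearson r of log2 CPM (prior count of 2, mean of at least 1 CPM). The glycosylation list matched 15 of 17 genes. Sequences are from RefSeq (GRCm38.p6), and exon lengths from GENCODE M1.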

Additional observations from a re-analysis of the deposited data

Results flagged for a closer look

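Among the 32 sets of 5 values formed by the 8 genes in 4 groups, 3 held a value far from the other 4 by Dixon's criterion (critical ratio 0.71), where chance gives about 1 in 20. Nos1 in sham control 1 was 93.6 CPM against 52.0 CPM for the next library. Sgca in sham mimic 1 was 246 CPM against 177 CPM for the next library. Utrn in MOV control 5 was 27.9 CPM, below 45.6 CPM for the next library. Sham control 1 and sham mimic 1 were the highest of their groups for both Nos1 and Sgca.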

How the results depend on the processing

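The call of Nos1 in MOV control against sham control, the only gene called there, is a description, since this contrast chose the gene. It was lost under scaling to the myofibre list (0 genes and 0 members called, log2 fold change -1.48, adjusted p = 0.0687 by edgeR) and under the replicate block (0 members called, -1.64, adjusted p = 0.103 by edgeR). In this contrast the block joins equal numbers of different mice, so it reflects no feature of the design. The call was held in 4 of 10 fits that left out 1 library, with an adjusted p from 0.00242 to 0.15 by edgeR. It was lost without sham control 2, 4 or 5 or MOV control 1, 2 or 4. These fits called 0 to 426 genes and 0 to 2 members, the second being Utrn without MOV control 5. In the same comparison DESeq2 called 913 genes, the fit with no filter 388 and the fit of all 20 libraries 36.

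In MOV mimic against sham mimic DESeq2 called 221 genes, no filter 1 and all 20 libraries 3, and leaving out 1 library gave 0 to 101, the highest without MOV mimic 5. DESeq2 called 3 genes and all 20 libraries 1 in MOV mimic against MOV control, and DESeq2 called 1 for the interaction. The causes of these changes were not tested.

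Signs that turned belonged to differences between -0.18 and 0.14. For Dag1 in MOV control against sham control, DESeq2 gave -0.0078, its size factors -0.0077, the fit of all 20 libraries -0.0060 and no filter -0.028. Scaling to the myofibre list moved the median of all genes from 0.02 to 0.32 in the mimic legs, where Dmd, Dag1, Sgcb and Dtna turned to 0.24, 0.13, 0.27 and 0.30, and it turned Utrn between the sham groups to -0.0086 and the interaction of Sgca to 0.094.

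Leaving out 1 library gave ranges across 0 for Dag1 (-0.074 to 0.049) in MOV control against sham control. In MOV mimic against sham mimic the same held for Dtna (-0.10 to 0.088), Sgcb (-0.080 to 0.043), Sgcd (-0.084 to 0.19) and Utrn (-0.072 to 0.26), and for the interaction of Sgca (-0.16 to 0.088). Between the sham groups it held for Dag1 (-0.10 to 0.066), Dmd (-0.077 to 0.074), Dtna (-0.15 to 0.033), Nos1 (-0.12 to 0.40), Sgca (-0.22 to 0.023), Sgcb (-0.047 to 0.022), Sgcd (-0.16 to 0.044) and Utrn (-0.048 to 0.14).

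Equal replicate numbers were not taken as pairs: deviations from group means of equal-numbered control and mimic libraries correlated at 0.07 to 0.39 after MOV and at 0.01 to 0.77 after sham, and 8 of 10 and 5 of 10 libraries correlated best with their own number, a hint from the data and not the design. The block called 0 members in every comparison. Depth limits low genes, of which Sgcd had 81 to 245 counts per library, the fewest of the 8 genes, and Dtnb of the wider list 33 to 113.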
